A study of Mus musculus with 2 samples.

Results

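The MHC class II genes are the set of genes that build, load and regulate the class II antigen presentation molecule. The set held here is the 10 mouse genes H2-Aa, H2-Ab1, H2-Eb1, Cd74, H2-DMa, H2-DMb1, H2-DMb2, H2-Oa, H2-Ob and Ciita, matched by symbol to 10 of 33696 mouse features, each to a single feature. They were followed across the authors' cell types, clusters and treatments in immune cells of subcutaneous MC38 tumours. MC38 is a mouse colon carcinoma line, and CD45, the marker on which the cells were sorted, is carried by all white blood cells. The hosts were mice with human Fcγ receptors, a genotype shared by all groups, treated with human IgG1 antibodies to mouse GITR, a costimulatory receptor of T cells, at 100 µg per injection in 2 injections 3 days apart, and sampled 4 days after treatment.

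GA-aFuc is annotated as an agonist antibody with an enhanced Fc part, which engages Fcγ receptors more strongly. GITR/Syn GA-aFuc is annotated as a non-agonist antibody with the same kind of enhanced Fc part. N297A is annotated as an agonist antibody with a null Fc part, and Untreated mice received PBS. Counts were at hand for library 2, with 10476 annotated cells: GA-aFuc 1 and 2 with 1723 and 1540 cells, GITR/Syn GA-aFuc 1 and 2 with 1729 and 1925 cells, N297A 1 with 1791 cells and Untreated 1 with 1768 cells. With 1 N297A mouse and 1 Untreated mouse, the spread in every test that used all mice came from the 2 pairs. It was assumed to hold for the single mice. Where a mouse of a pair was left out, or a pair was fitted with a single mouse alone, the spread came from 1 pair. Age, sex and strain are not given in the sources used here.

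Total UMIs, the counted RNA molecules, ran from 17176544 to 25808043 per mouse. The 10 genes held 1.43% of them. Xist, the RNA of the inactive X chromosome, stood at 567 CPM in GA-aFuc 1 and 551 CPM in GITR/Syn GA-aFuc 1, against 1.64 to 1.98 CPM in the other 4 mice. CPM, the usual depth-scaled count, is the UMIs of a gene over all mapped UMIs of the cells summed, times 1000000. Each UMI stands for 1 molecule captured at its 3′ end, so CPM were not divided by gene length. The libraries of the series share 34 cell barcodes, and library 1 was not analysed here. Markers of macrophages were highest in their own annotated type for 6 of 6 genes, of mregDC for 4 of 4, of pDC for 4 of 4, of monocytes for 4 of 6, of cDC1 for 3 of 4 and of cDC2 for 3 of 5. For CD4 T cells it was 0 of 2. Cd4 itself was at 173 CPM in CD4 T cells and 219 CPM in Tregs. Markers of B cells, the other main class II carriers (Ms4a1, Cd79a, Cd79b, Pax5 and Iglc2), summed to 23.7 to 37.6 CPM in the macrophages of the 6 mice and 6.44 to 13.7 CPM in monocytes. In dendritic cells they summed to 43.2 CPM in GA-aFuc 2 and 19.4 CPM in the N297A mouse, against 3.23 to 6.88 CPM in the other 4 mice. Over all mice, Iglc2 stood at 109 CPM in pDC and Cd79b at 29.5 CPM in macrophages, while Ms4a1 stood at 1.58 CPM or less in the myeloid types. The part of B cell RNA in the class II levels was not tested.

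Class II molecules show peptides from engulfed material to CD4 T cells. H2-Aa and H2-Ab1 encode the α and β chains of I-A, and H2-Eb1 the β chain of I-E. Cd74 encodes the invariant chain, which blocks the groove until the complex reaches the endosome. H2-DMa with H2-DMb1 or H2-DMb2 forms the DM editor that exchanges the remaining invariant chain fragment for peptide, and H2-Oa with H2-Ob forms DO, which restrains DM. Ciita encodes the transactivator without which class II genes are hardly transcribed. It binds no DNA itself but docks on factors assembled on short promoter boxes, and interferon-γ induces it in macrophages. Dendritic cells carry class II constitutively, while monocytes and macrophages vary.

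The promoters are shown because these boxes are what the class II genes share in sequence. RefSeq promoter windows (build GRCm38.p6, 250 bases before to 50 after each gene start) were read for 7 of the 10 genes. No window was at hand for H2-Ab1 and Ciita. Cd74 was left out of the search among the members, so the counts of 7 genes below do not cover it. The capitals mark the letters GATTGG, the core of the Y box, which NF-Y binds, and ATGATGC, which lies within the X box bound by RFX and CREB factors. Both were searched on both strands. They do not overlap each other, and they were picked after the sequences had been read. Each stretch is 60 bases long, 5′ to 3′ on the gene's strand.
H2-Aa (chr17:34287853-34287912, minus strand): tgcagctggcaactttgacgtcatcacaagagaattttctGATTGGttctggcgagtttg
H2-Eb1 (chr17:34305767-34305826, plus strand): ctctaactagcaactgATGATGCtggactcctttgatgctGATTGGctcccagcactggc
H2-DMb1 (chr17:34153089-34153148, plus strand): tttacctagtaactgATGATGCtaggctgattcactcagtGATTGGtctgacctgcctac
H2-DMb2 (chr17:34145118-34145177, plus strand): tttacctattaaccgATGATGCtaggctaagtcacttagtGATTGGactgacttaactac
H2-Oa (chr17:34092295-34092354, plus strand): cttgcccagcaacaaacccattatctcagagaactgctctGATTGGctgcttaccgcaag
H2-Ob (chr17:34238807-34238866, plus strand): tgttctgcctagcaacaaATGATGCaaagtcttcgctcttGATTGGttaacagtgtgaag

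In these 6 genes GATTGG began between 44 bases (H2-Oa) and 91 bases (H2-DMb2) before the gene start. GATTGG was found in a window of 7 of the 7 genes, H2-DMa included, where it began 199 bases before the start of 1 of its 2 windows. It was found in 16.1% of all 32851 promoter windows. ATGATGC was found in 4 of the 7 genes and in 2.46% of all windows. In those 4 genes it stood upstream of GATTGG with 15 to 18 bases between them. An ordered pair 10 to 25 bases apart occurred in 7 of all 32851 windows, or 0.0213%, and 4 of these 7 belong to H2-Eb1, H2-DMb1, H2-DMb2 and H2-Ob. The match is a description of the letters, and the data hold no binding measurement.

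The summed class II RNA was ordered by cell type. cDC2, the dendritic cells that present mainly to CD4 T cells, had 41367 CPM over all mice, cDC1, the cross-presenting dendritic cells, 32936 CPM, monocytes 19727 CPM, mregDC, the mature migratory dendritic cells, 14963 CPM, and macrophages 13275 CPM. pDC, the interferon-producing plasmacytoid cells, had 5430 CPM, CD8 T cells 583 CPM and NK cells 422 CPM. Per mouse, cDC2 ran from 36655 to 44814 CPM, monocytes from 13326 to 26165 CPM and macrophages from 7865 to 19465 CPM. The cDC2 range therefore did not overlap that of monocytes, while the ranges of monocytes and macrophages overlapped widely. mregDC, at 11895 to 18667 CPM, lay within the macrophage range. The cell types were annotated on these same cells, so the order is given without a test.

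**Figure D1:**
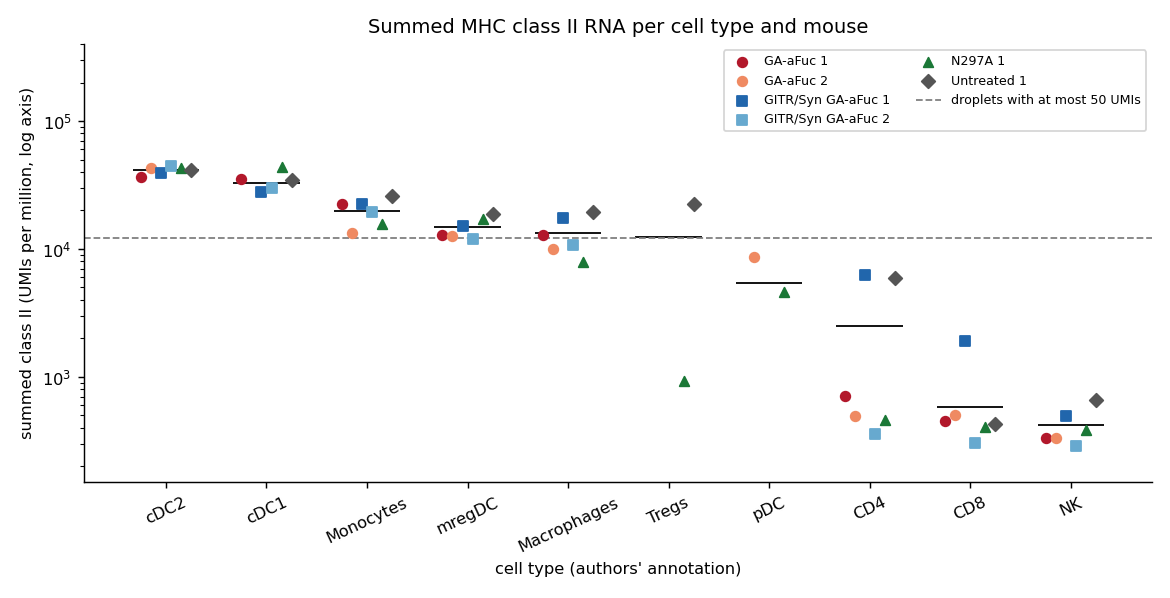
Summed class II RNA in CPM (log axis) for the 10 annotated cell types, with 1 point per mouse with at least 5 cells of the type and a bar for all cells pooled; the dashed line is the level in droplets with at most 50 UMIs. The cDC2 points lie between 36655 and 44814, above all monocyte and macrophage points, and pooled CD8 T and NK cells lie at 583 and 422.

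Within the sum, Cd74 supplied 42.3% of class II UMIs, H2-Ab1 19.6%, H2-Aa 16.4% and H2-Eb1 16.1%. The DM genes H2-DMa and H2-DMb1 supplied 2.66% and 2.25%, Ciita 0.344%, H2-DMb2 0.148%, H2-Oa 0.0703% and H2-Ob 0.0596%. The 4 abundant genes thus made up nearly all of the sum, and the low members had to be read one by one. H2-Ea, which would pair with H2-Eb1 and is not a member, had 3 UMIs in all cells, and H2-Eb2 had 196. The 16 human class II features on the combined reference had 6 UMIs together.

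The DO genes and H2-DMb2 had their highest levels in types of dendritic cells. By count, the many macrophages held 578 of 1131 H2-Ob UMIs and 1090 of 2801 H2-DMb2 UMIs. H2-Oa, the DO α chain, stood at 228 CPM in cDC2, 100 CPM in pDC, 95 CPM in cDC1 and 29.9 CPM in mregDC, against 6.22 CPM in monocytes and 3.02 CPM in macrophages. After each cell was thinned to 3000 UMIs, so that depth was equal, a UMI of H2-Oa was found in 42.3% of cDC2 (exact 95% interval 36.3% to 48.5%) and in 22.2% of pDC (8.62% to 42.3%, 27 cells). In macrophages it was found in 1.02% (0.775% to 1.32%), against 0.94% of CD8 T cells (0.306% to 2.18%) and 1.04% of NK cells (0.381% to 2.24%), so the 3 intervals overlapped. Unthinned, these shares were 73.9%, 44.4%, 4%, 3.14% and 3.97%, at median depths of 11115, 8467, 14327, 8505 and 8402.5 UMIs. Intervals cover counting error only. H2-Ob, the DO β chain, stood at 111 CPM in cDC1 and 90.2 CPM in cDC2, but at 4.36 CPM in pDC, where H2-Oa was abundant.

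H2-DMb2, a DM β chain, stood at 304 CPM in cDC2 and 93.8 CPM in cDC1, against 20.5 CPM in monocytes and 12.8 CPM in macrophages. In pDC it stood at 8.72 CPM, on 2 UMIs. Thinned, a UMI was found in 52.4% of cDC2 (46.3% to 58.6%), 5.31% of monocytes and 3.43% of macrophages (2.97% to 3.94%), against 0.376% of CD8 T cells (0.0456% to 1.35%) and 0.173% of NK cells. Unthinned, it was 81.3%, 15.2%, 15.5%, 0.923% and 0.497%. H2-DMb1, its close paralogue, was at 634 CPM in cDC2, 447 CPM in monocytes and 311 CPM in macrophages. How the counting treated reads that fit both genes was not tested.

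Ciita stood at 232 CPM in cDC2, 149 CPM in cDC1, 73.5 CPM in monocytes and 40.3 CPM in macrophages. Thinned, a UMI was found in 51.7% of cDC2 (45.5% to 57.8%), 17.8% of monocytes (16.5% to 19.2%) and 11.1% of macrophages (10.3% to 11.9%), against 0.376% of CD8 T cells and 0.691% of NK cells. Unthinned, it was 83.6%, 38.4%, 32.4%, 1.11% and 1.82%. mregDC combined 26.3 CPM of Ciita with 3106 CPM of H2-Aa and 6125 CPM of Cd74. They also had little of the DM editor, with 160 CPM of H2-DMa and 75.5 CPM of H2-DMb1, against 833 and 634 CPM in cDC2. In 3 of 53 thinned mregDC a Ciita UMI was found (5.66%, interval 1.18% to 15.7%; 20% unthinned).

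Free RNA carried much class II. Droplets with at most 50 UMIs had 12123 CPM of it, in nearly the macrophage mix, with Cd74 at 41.2% and H2-Ab1 at 19.1%. CD8 T cells had at least 1 class II UMI in 95.4% of cells, and NK cells in 94.2%, before thinning. Most of that was either low and even or sat in a few cells. In 5 of 542 CD8 T cells with at least 50 class II UMIs lay 35.7% of all class II UMIs of CD8 T cells, and the rest had 382 CPM. In NK cells it was 2 of 604 cells with 19.1%, and the rest had 344 CPM.

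In annotated Tregs and CD4 T cells most class II UMIs sat in single cells. Of 24 Tregs, 3 held 95.5% of the class II UMIs of that type, and the others had 836 CPM, against 12440 CPM for all 24. Summed macrophage markers stood at 23360 CPM in those 3 cells and 3668 CPM in the other 21. Of 64 CD4 T cells, 4 held 80.2%, and the others had 584 CPM, against 2512 CPM for all. Of the 5 CD8 T cells, 2 belonged to GITR/Syn GA-aFuc 1, whose CD8 T cells had 1902 CPM with them and 468 CPM without them. The CD8 range over mice was 306 to 1902 CPM with these cells and 306 to 468 CPM without them. Whether these droplets held 2 cells was not tested.

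Pooled over cells and mice, H2-Oa made up a larger part of the class II RNA in CD8 T and NK cells than in free RNA. It was 18 of 3185 class II UMIs in CD8 T cells (0.565%, exact 95% interval 0.335% to 0.892%) and 27 of 2691 in NK cells (1.00334%, interval 0.662% to 1.46%), against 77 of 88893 in the droplets (0.0866%, interval 0.0684% to 0.108%). H2-DMa was 5.27% in CD8 T cells (4.52% to 6.11%) and 6.61% in NK cells (5.7% to 7.62%), against 3.47% in the droplets (3.35% to 3.6%). Ciita was 0.345% in CD8 T cells (0.173% to 0.617%) and 0.409% in NK cells (0.204% to 0.73%), against 0.252% in the droplets (0.22% to 0.287%). H2-DMb1, the partner of H2-DMa, was 1.92% in CD8 T cells (1.47% to 2.45%) and 2.56% in NK cells (2% to 3.23%), against 2.73% in the droplets (2.62% to 2.84%). The H2-Oa and H2-DMa intervals lay above those of the droplets in both types, and the Ciita interval overlapped in both. For H2-DMb1 the CD8 T cell interval lay below that of the droplets and the NK cell interval overlapped it. These intervals count UMIs and cover counting error only, not the spread between cells or mice. The cells with at least 50 class II UMIs were kept in. Among CD8 T cells H2-DMb1 was 8 of 624 class II UMIs in GA-aFuc 1 and 19 of 587 in the Untreated mouse. Differences between mice were not tested here.

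The authors' clusters spread class II widely within macrophages and within monocytes. Among 24 macrophage clusters the sum ran from 4549 CPM in cluster 5 (398 cells) to 34784 CPM in cluster 14 (261 cells), and Ciita from 9.84 CPM in cluster 9 to 106 CPM in cluster 28. Among 15 monocyte clusters it ran from 1601 CPM in cluster 54 (65 cells) to 32104 CPM in cluster 1 (404 cells). The highest macrophage cluster thus came near the cDC2 clusters, and the lowest monocyte cluster lay below every macrophage cluster. Clusters of cDC2 split less, from 35251 to 43599 CPM among 3 clusters, but H2-Oa was 317 CPM in cluster 46 and 127 CPM in cluster 36. The single clusters of cDC1, mregDC and pDC stood at 32936, 14963 and 5430 CPM.

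Over the 50 clusters with at least 50 cells, 3 of the abundant members ran almost in parallel with the sum they supply: on the log2(CPM + 1) scale Pearson's r was 0.998 for Cd74, 0.997 for H2-Aa and 0.996 for H2-Ab1. H2-Eb1 followed at 0.990, H2-DMb1 at 0.969, H2-DMa at 0.951, Ciita at 0.948, H2-DMb2 at 0.880, H2-Ob at 0.825 and H2-Oa at 0.450. Outside the set, the 10 genes most like the sum among 8295 compared were Bcl2a1a (0.911), Spint1 (0.909), Dnase1l3 (0.907), Gm57366 (0.907), Creb5 (0.906), Ston2 (0.903), Dynlt2b (0.903), Cxcl16 (0.902), F11r (0.901) and Ifi30 (0.899). Bcl2a1a is an anti-apoptotic BCL2 relative, Cxcl16 a chemokine of myeloid cells and Ifi30 the lysosomal thiol reductase that prepares proteins for class II. These correlations describe 50 clusters of 1 library, which share its 6 mice and include both myeloid cells and lymphocytes.

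In macrophages class II RNA was lower in the antibody-treated mice than in the Untreated mouse, without passing the test. The sum stood at 12959 and 9951 CPM in GA-aFuc mice, 17586 and 10743 CPM in GITR/Syn GA-aFuc mice and 7865 CPM in the N297A mouse, against 19465 CPM in the Untreated mouse. The Untreated mouse was the highest and the N297A mouse the lowest, and the pairs lay between them with a wide gap inside each pair. The mice also differed in which clusters their macrophages fell into. Cluster 9, where the sum was 4750 CPM, drew 35 cells from GA-aFuc 1, 148 cells from GA-aFuc 2, 15 cells from GITR/Syn GA-aFuc 1, 62 cells from GITR/Syn GA-aFuc 2 and 55 cells from the N297A mouse, against 18 cells from the Untreated mouse. There were 826 to 1090 macrophages per mouse. The 6 monocyte markers summed in macrophages to 1007 CPM in GA-aFuc 2, against 163 to 330 CPM in the other 5 mice. The 20 clusters with at least 10 cells in every mouse were also given the same weight, leaving out the smaller ones. The log2 ratio of the sum to Untreated was then -0.59 for GA-aFuc, -0.38 for GITR/Syn GA-aFuc and -1.03 for N297A. Over all macrophages without that weighting it was -0.76, -0.46 and -1.31. The part of the monocyte markers in the sums was not tested. H2-Aa stood at 2058 and 1573 CPM in GA-aFuc mice, 2837 and 1642 CPM in GITR/Syn GA-aFuc mice and 1208 CPM in the N297A mouse, against 3129 CPM in the Untreated mouse.

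H2-Eb1 stood at 1997 and 1609 CPM in GA-aFuc mice, 2714 and 1784 CPM in GITR/Syn GA-aFuc mice and 1247 CPM in the N297A mouse, against 3346 CPM in the Untreated mouse. Cd74 stood at 5748 and 4398 CPM in GA-aFuc mice, 7991 and 4642 CPM in GITR/Syn GA-aFuc mice and 3387 CPM in the N297A mouse, against 8228 CPM in the Untreated mouse. For these chains and for H2-Ab1 the order of the 6 mice was the same at the top and the bottom. Ciita stood at 43.3 and 28.6 CPM in GA-aFuc mice, 61.3 and 29.5 CPM in GITR/Syn GA-aFuc mice and 17.2 CPM in the N297A mouse, against 57.3 CPM in the Untreated mouse, so its highest value was in a GITR/Syn GA-aFuc mouse. That order turned after TMM scaling, the edgeR correction for library composition, with 58.0 CPM in GITR/Syn GA-aFuc 1 against 59.0 CPM in the Untreated mouse. H2-DMb2, at 11.5 to 13.8 CPM in all 6 mice, did not share the pattern.

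Of the 10 members, the Untreated mouse was the highest for 8 and the N297A mouse the lowest for 7, or for 9 and 6 after TMM scaling. Within the pairs, GA-aFuc 1 was above GA-aFuc 2 for 9 of 10 members and GITR/Syn GA-aFuc 1 above GITR/Syn GA-aFuc 2 for 8 of 10. The higher mouse of each pair is the one with Xist RNA, and the N297A and Untreated mice both had under 2 CPM of Xist. The part of this in the result was not tested beyond the fit with an Xist term given below.

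**Figure D2:**
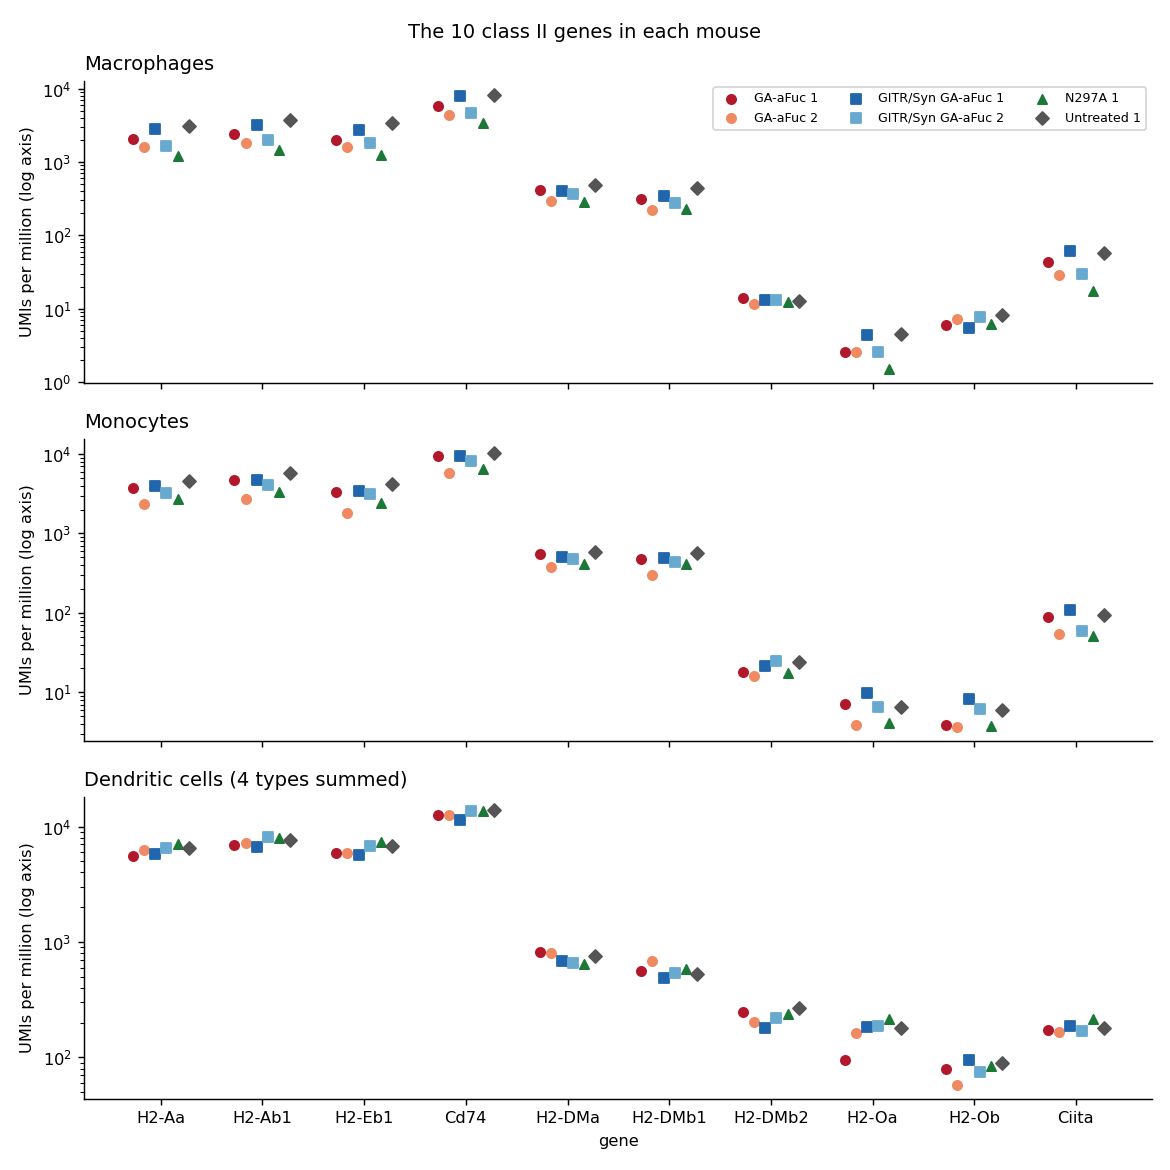
Level of each of the 10 genes in CPM (log axis) in macrophages, monocytes and dendritic cells, with 1 point per mouse. In macrophages the N297A triangle is the lowest point for 7 of 10 genes and the Untreated diamond the highest for 8, before TMM scaling. In dendritic cells the points of a gene lie closer together than in macrophages for 8 of 10, all but H2-DMb2 and H2-Ob.

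In the edgeR quasi-likelihood fit across all genes, 0 of the 10 members passed at an adjusted p under 0.05 in macrophages for GA-aFuc, for GITR/Syn GA-aFuc or for N297A against Untreated, where 0%, 0% and 0% of all 14340 genes passed. GA-aFuc against Untreated gave a median log2 fold change of -0.77 over the members (range -0.95 to -0.05), against 0.01 over all genes. Without adjustment, 4 of 10 had p under 0.05, against 3.04% of all genes. N297A against Untreated gave a median of -1.31 (-1.73 to -0.05), with 8 of 10 members under 0.05 before adjustment, against 2.07% of all genes. GITR/Syn GA-aFuc against Untreated gave a median of -0.46 (-0.65 to -0.01), with 0 of 10 members under 0.05, against 1.29% of all genes. The fold change was -1.73 ± 0.46 (SE) for Ciita, -1.42 ± 0.35 for H2-Eb1, -1.37 ± 0.39 for H2-Aa and -0.05 ± 0.27 for H2-DMb2 in N297A against Untreated.

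The macrophage call depended on the fit. For N297A against Untreated, DESeq2 called 3 members lower, H2-Eb1, H2-Ab1 and H2-Aa, where it called 0.13% of 7667 genes. With a term for mice with Xist RNA, edgeR called 5 members in that comparison, Ciita, H2-Eb1, H2-Aa, H2-Ab1 and Cd74, among 0.453% of all genes. The same 5 were called with this term in GA-aFuc against Untreated, among 2.17% of all genes, with log2 fold changes of -1.03 (Cd74) to -1.16 (H2-Ab1). With no filter on low counts, these 5 were called in N297A against Untreated (0.285% of genes), H2-Eb1 in GA-aFuc against Untreated (0.85%) and Ciita in GA-aFuc against N297A (0.958%). Without GA-aFuc 1 or without GA-aFuc 2, Ciita was called in N297A against Untreated (-1.74 in both fits; 0.352% and 0.36% of genes). Without GA-aFuc 1 it was also called in GA-aFuc against Untreated (-1.05, edgeR adjusted p = 0.0481; 2.68%). The Xist term took up the gap that the 2 pairs shared, from which the spread came, and left fewer residual degrees of freedom. With it, Ciita stayed at -1.73 in N297A against Untreated. Without 1 of the GA-aFuc mice, the spread came from the GITR/Syn GA-aFuc pair alone. In a single comparison of 1 N297A mouse with 1 Untreated mouse, antibody and mouse cannot be told apart.

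The Fc comparison left no member past the test. For both Fc-enhanced antibodies against the N297A and Untreated mice, 0 of 10 members passed in macrophages, where 0% of all genes did, with a median of -0.05 (-0.21 to 0.29) and 0 of 10 under an unadjusted 0.05, against 3.33% of all genes. In the summed level the 4 Fc-enhanced mice lay between the N297A and the Untreated mouse. GA-aFuc against N297A, 2 agonists that differ in the Fc part, gave 0 of 10 members at a background of 0%, a median of 0.45 (-0.01 to 1) and 1 of 10 under 0.05 before adjustment, against 3.23%. That member was Ciita, at 1 ± 0.41, and without GA-aFuc 2 it was called (1.27, edgeR adjusted p = 0.0223; 0.876% of genes). GITR/Syn GA-aFuc against GA-aFuc gave 0 of 10 members at a background of 0.00697%, a median of 0.29 (0.01 to 0.4) and 0 of 10 under 0.05, against 2.52%.

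Monocytes were likewise highest in the Untreated mouse, without a member passing the test. The sum stood at 22347 and 13326 CPM in GA-aFuc mice, 22619 and 19605 CPM in GITR/Syn GA-aFuc mice and 15791 CPM in the N297A mouse, against 26165 CPM in the Untreated mouse. The lowest was GA-aFuc 2, below the N297A mouse. The 4 neutrophil markers summed in monocytes to 349 CPM in GA-aFuc 2, against 47.1 to 86.5 CPM in the other 5 mice, and their part in the result was not tested. H2-Ab1 stood at 4645 and 2688 CPM in GA-aFuc mice, 4751 and 4104 CPM in GITR/Syn GA-aFuc mice and 3349 CPM in the N297A mouse, against 5710 CPM in the Untreated mouse. Ciita stood at 89.6 and 54.9 CPM in GA-aFuc mice, 109 and 58.6 CPM in GITR/Syn GA-aFuc mice and 51.9 CPM in the N297A mouse, against 93.1 CPM in the Untreated mouse. Ciita in the Untreated mouse thus fell inside the range of the treated mice, and H2-Ab1 in the Untreated mouse above it.

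In monocytes 0 of the 10 members passed in GA-aFuc against Untreated, where 0.176% of 11920 genes did, in GITR/Syn GA-aFuc against Untreated (0%) or in N297A against Untreated (0%). The median log2 fold changes were -0.56 (-0.73 to -0.30), -0.27 (-0.40 to 0.27) and -0.67 (-0.82 to -0.45). Members under 0.05 before adjustment numbered 5, 0 and 4 of 10, against 6.57%, 2.44% and 2.5% of all genes. H2-Eb1 had -0.73 ± 0.29 in GA-aFuc and -0.78 ± 0.34 in N297A against Untreated. With no filter on low counts, H2-Eb1 and H2-Ab1 were called in GA-aFuc against Untreated, where 0.932% of genes were. For both Fc-enhanced antibodies against the other mice, GA-aFuc against N297A and GITR/Syn GA-aFuc against GA-aFuc, 0 of 10 passed each time, at backgrounds of 0.344%, 0.579% and 0.109%. There 0, 0 and 2 of 10 were under 0.05 before adjustment, against 8.54%, 9.04% and 5.06% of all genes. Those 2 were H2-Ob (0.92 ± 0.34) and H2-DMb2 (0.47 ± 0.20).

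Whether GA-aFuc against Untreated differed between the 2 myeloid types was tested as an interaction in a joint fit. The macrophage-minus-monocyte difference of GA-aFuc against Untreated passed for 0 of the 10 members and for 0% of 13857 genes, with an adjusted p of 1 for each member. It was -0.32 ± 0.17 for Ciita and 0.50 ± 0.24 for H2-DMb2. The other 8 members lay between -0.55 (H2-Oa, ± 0.49) and 0.33 (H2-Ob, ± 0.49).

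In dendritic cells no class II gene passed the test, and in the summed level the mice lay closer together than in macrophages. The sum over the 4 types stood at 32999 and 34230 CPM in GA-aFuc mice, 31441 and 36732 CPM in GITR/Syn GA-aFuc mice and 38125 CPM in the N297A mouse, against 36648 CPM in the Untreated mouse. The Untreated mouse lay inside the range of the treated mice, on 47 to 83 cells per mouse. The mix of the 4 types, which differ in level, varied, with 5 to 15 mregDC and 2 to 8 pDC per mouse. In cDC2 alone the sum stood at 36655 and 42640 CPM in GA-aFuc mice and 39376 and 44814 CPM in GITR/Syn GA-aFuc mice. It stood at 42607 CPM in the N297A mouse and 41231 CPM in the Untreated mouse, which was then below GA-aFuc 2. The part of the mix was not tested beyond the fits of cDC2 alone given below. H2-Oa stood at 94.6 and 162 CPM in GA-aFuc mice, 183 and 186 CPM in GITR/Syn GA-aFuc mice and 214 CPM in the N297A mouse, against 180 CPM in the Untreated mouse, so both GA-aFuc mice were below the other 4.

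In dendritic cells 0 of the 10 members passed in any of the 6 comparisons. For GA-aFuc, GITR/Syn GA-aFuc and N297A against Untreated the backgrounds were 0.0117%, 0% and 0.0234% of 8557 genes, the medians -0.15 (-0.51 to 0.22), -0.08 (-0.43 to 0.03) and 0.08 (-0.25 to 0.26), and 0, 0 and 0 of 10 members were under 0.05 before adjustment, against 6.97%, 4.72% and 5.22% of all genes. For GA-aFuc against N297A, GITR/Syn GA-aFuc against GA-aFuc and both Fc-enhanced antibodies against the other mice the backgrounds were 0.0234%, 0.14% and 0.0234%. There 3, 2 and 1 of 10 were under 0.05 before adjustment, against 6.97%, 7.16% and 6.14%. H2-Oa was at -0.74 ± 0.27 in GA-aFuc against N297A and at 0.54 ± 0.22 in GITR/Syn GA-aFuc against GA-aFuc. Without GA-aFuc 2 edgeR called it in both, at -1.18 among 1.13% of genes and at 0.98 among 0.824%. Without GITR/Syn GA-aFuc 2, edgeR called H2-Eb1, Cd74, H2-Aa and H2-Ab1 in both Fc-enhanced antibodies against the other mice, at -0.21 to -0.29 among 0.784% of genes, and Cd74 in GITR/Syn GA-aFuc against Untreated (-0.30; 0.338%). H2-Eb1 was called in GA-aFuc against N297A without GITR/Syn GA-aFuc 1 (0.854% of genes), without GITR/Syn GA-aFuc 2 (0.856%) and with these treatments fitted alone (0.992%), at -0.30 to -0.33.

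**Figure D3:**
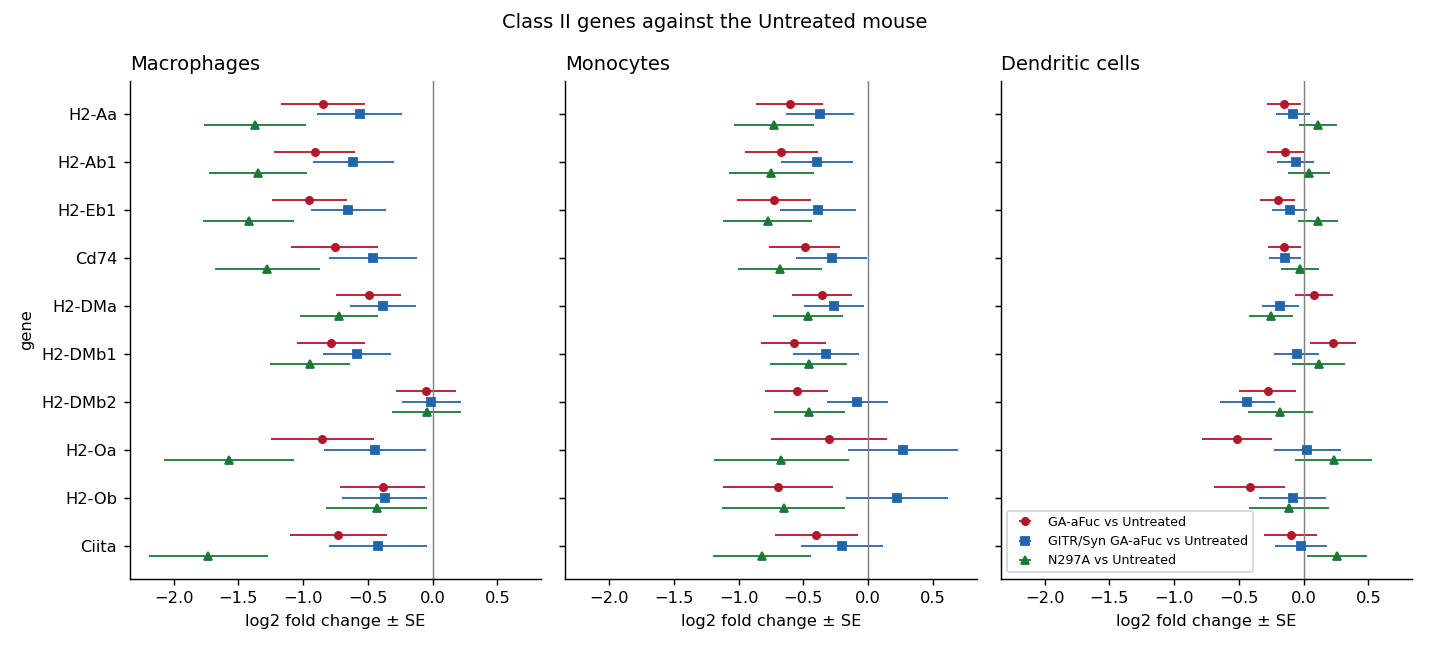
Log2 fold changes (points) with standard errors (bars) of the 10 genes for GA-aFuc, GITR/Syn GA-aFuc and N297A against the Untreated mouse, from edgeR fits in macrophages, monocytes and dendritic cells. Values lie left of 0 for all 10 genes and all 3 antibodies in macrophages, down to -1.73 for Ciita in N297A, and around 0 in dendritic cells.

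The sums were also compared cluster by cluster. The GA-aFuc and GITR/Syn GA-aFuc values in this comparison are means of the 2 mice of the pair. Among the 20 macrophage clusters with at least 10 cells in every mouse, the sum was lower in GA-aFuc than in Untreated in 20, in GITR/Syn GA-aFuc in 19 and in N297A in 20. The median log2 ratios were -0.60 (-1.38 to -0.22), -0.37 (-0.96 to 0.42) and -1.36 (-2.30 to -0.31). Among 11 monocyte clusters the sum was lower in 10, 10 and 10, with medians of -0.39 (-1.89 to 0.58), -0.19 (-1.02 to 0.06) and -0.43 (-2.08 to 0.05). Single mice of a pair did not always follow its mean. In macrophage cluster 4 GITR/Syn GA-aFuc 1 stood at 11517 CPM and GITR/Syn GA-aFuc 2 at 5700 CPM, against 9766 CPM in the Untreated mouse. In monocyte cluster 8 GA-aFuc 1 stood at 9781 CPM and GA-aFuc 2 at 2719 CPM, against 7825 CPM in the Untreated mouse. The clusters share the same 6 mice and were built from these cells, so they are not replicates. In 0 of the 20 macrophage clusters and 0 of the 11 monocyte clusters did the 4 Fc-enhanced mice all lie on 1 side of the other 2. In macrophage cluster 14, the highest, the sum stood at 32760 and 30081 CPM in GA-aFuc mice, 38809 and 30455 CPM in GITR/Syn GA-aFuc mice and 32399 CPM in the N297A mouse, against 40191 CPM in the Untreated mouse.

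**Figure D4:**
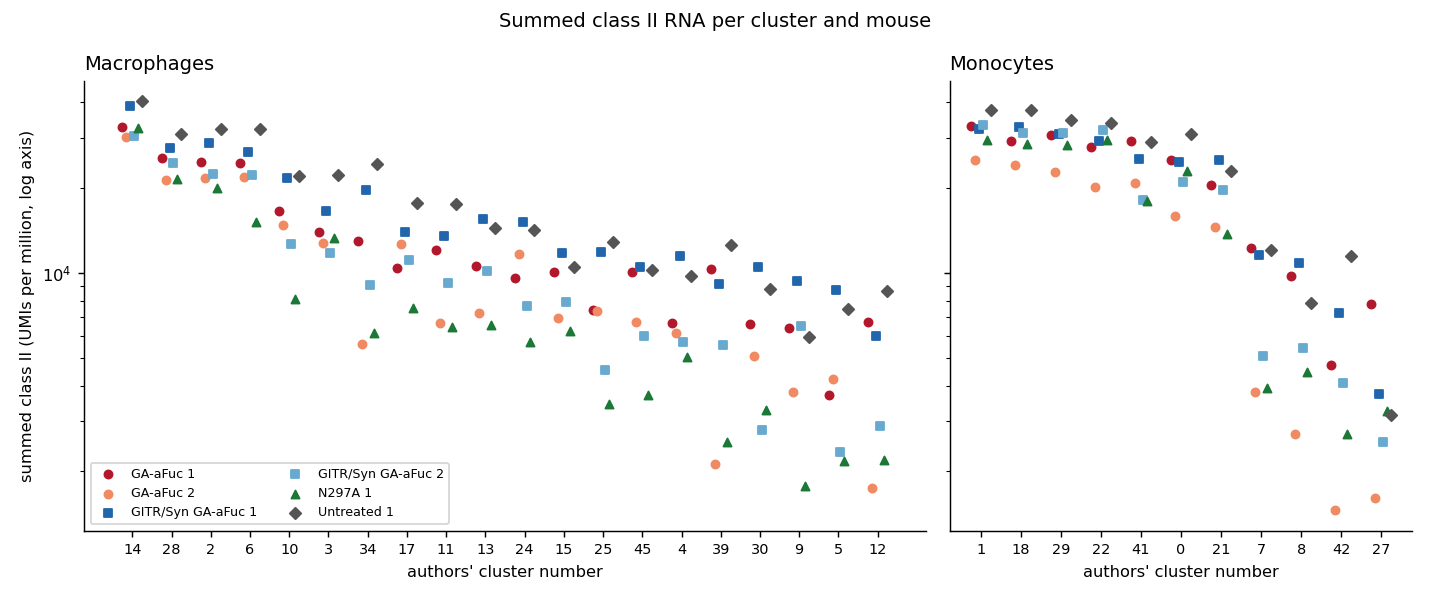
Summed class II RNA in CPM (log axis) per authors' cluster, for the 20 macrophage and 11 monocyte clusters with at least 10 cells in every mouse, with 1 point per mouse and clusters in falling order of their mean over mice. The Untreated diamond lies above the N297A triangle in 20 of 20 macrophage and 10 of 11 monocyte clusters.

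Cell by cell, the mice differed in how many macrophages carried much class II. After thinning to 3000 UMIs, the share of macrophages with at least 10 class II UMIs was 75.9% and 58.9% in the GA-aFuc pair, 86.1% and 59.5% in the GITR/Syn GA-aFuc pair and 51.9% in the N297A mouse, against 87% in the Untreated mouse. The median macrophage had 30 and 15 class II UMIs of 3000 in the GA-aFuc pair, 48 and 17 in the GITR/Syn GA-aFuc pair and 10 in the N297A mouse, against 51.5 in the Untreated mouse. GITR/Syn GA-aFuc 1 and the Untreated mouse were close to each other and the other 4 lower. In monocytes the share was 82.7% and 61.8% in the GA-aFuc pair, 83.4% and 70.5% in the GITR/Syn GA-aFuc pair and 63.8% in the N297A mouse, against 82.5% in the Untreated mouse. Between 3.75% and 7.45% of macrophages and between 2.91% and 5.56% of monocytes per mouse lay within 8 to 11 UMIs, near the limit. Thinning left out 2 to 21 macrophages and 2 to 29 monocytes per mouse. Unthinned, the macrophage shares were 95.4% and 80.4% in the GA-aFuc pair, 97.2% and 90.6% in the GITR/Syn GA-aFuc pair and 86.4% in the N297A mouse, against 98.1% in the Untreated mouse. In CD8 T cells the thinned share was 0% to 3.03% and in NK cells 0% to 1.1% per mouse.

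**Figure D5:**
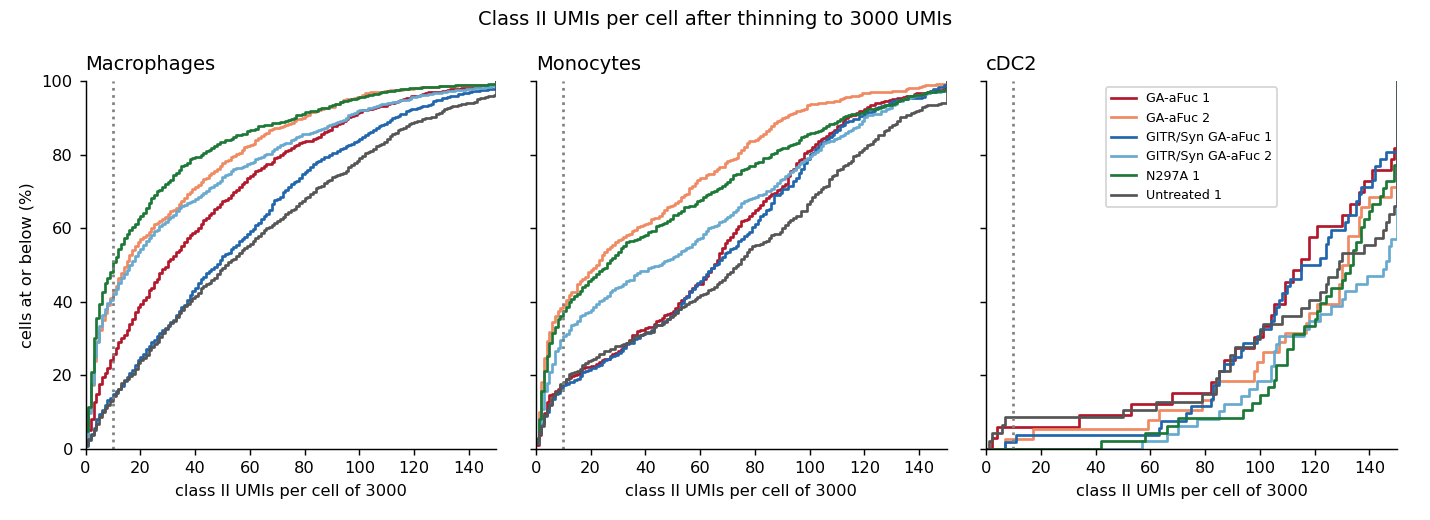
Cumulative share of cells (%) against the number of class II UMIs per cell after thinning to 3000 UMIs, for macrophages, monocytes and cDC2, with 1 line per mouse and a dotted line at 10 UMIs. In macrophages the N297A line rises first, with 51.9% of cells at 10 or more, and the Untreated and GITR/Syn GA-aFuc 1 lines last; cDC2 lie to the right of both myeloid types in every mouse.

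The pathway genes around class II were taken from 7 lists: 12 of class II transcription, 16 of upstream signalling, 10 of endosomal processing, 10 of class II traffic and turnover, 8 of costimulation and class II receptors, 12 of class I and its loading, and 5 others of the class II region. In macrophages 0 genes of the 7 lists passed in GA-aFuc against Untreated, N297A against Untreated or both Fc-enhanced antibodies against the others. The class I list, for contrast, had 12 of 12 negative values in macrophages in GA-aFuc (median -0.32), GITR/Syn GA-aFuc (-0.25) and N297A (-0.42) against Untreated, none passing and a median near 0 over all genes. In monocytes the class I medians were -0.16, -0.07 and -0.14. The costimulation list had 8 of 8 negative values in macrophages for N297A against Untreated (median -1.20), with 0 passing. The class II transcription list, with the factors that hold Ciita at the promoter, had a median of 0.11 in macrophages and 0.04 in monocytes for GA-aFuc against Untreated, with 0 of 12 passing in each.

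In the costimulation list 2 ligands of PD-1 passed in monocytes. Pdcd1lg2, which encodes PD-L2, stood at 95.8 and 130 CPM in GA-aFuc mice, 34.3 and 19.5 CPM in GITR/Syn GA-aFuc mice and 7.97 CPM in the N297A mouse, against 17.9 CPM in the Untreated mouse. Both GA-aFuc mice lay above the other 4. It rose by 2.62 ± 0.32 in GA-aFuc against Untreated (edgeR adjusted p = 0.0116; 0.176% of all genes passed there) and by 3.77 in GA-aFuc against N297A (0.579%). It fell by 2.10 in GITR/Syn GA-aFuc against GA-aFuc (0.109%), and rose by 2.15 ± 0.24 in both Fc-enhanced antibodies against the other mice (adjusted p = 0.00208; 0.344%). Cd274, which encodes PD-L1, stood at 533 and 496 CPM in GA-aFuc mice, 429 and 443 CPM in GITR/Syn GA-aFuc mice and 178 CPM in the N297A mouse, against 357 CPM in the Untreated mouse. It rose by 0.87 ± 0.15 in both Fc-enhanced antibodies against the others (adjusted p = 0.0286) and by 1.48 in GA-aFuc against N297A (adjusted p = 0.0101). Without the N297A mouse neither was called in both Fc-enhanced antibodies against the others, a comparison then made with the Untreated mouse alone.

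In dendritic cells 1 listed gene passed. Ctsl, which encodes the lysosomal protease cathepsin L, fell in GITR/Syn GA-aFuc against GA-aFuc, with 45.7 and 54.9 CPM in GITR/Syn GA-aFuc mice against 114 and 221 CPM in GA-aFuc mice (-1.72, adjusted p = 0.0467; 0.14% of all genes passed there). Among genes that did not pass, those with the smallest p in GA-aFuc against Untreated were Pdcd1lg2 (2.50 ± 0.42) and Cd40 (-0.74 ± 0.30), a costimulatory receptor, in macrophages. In dendritic cells they were Cst3 (-0.45 ± 0.11), the cystatin that inhibits cathepsins, and Ctsl (1.41 ± 0.36).

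The upstream signalling list had a median of -0.21 in macrophages and -0.25 in monocytes for N297A against Untreated, with 11 of 16 and 11 of 15 members negative and 0 passing. Irf1 and Socs1, which interferon-γ induces, were picked after their values were seen. In macrophages Irf1 stood at 327 and 224 CPM in GA-aFuc mice, 310 and 275 CPM in GITR/Syn GA-aFuc mice and 131 CPM in the N297A mouse, against 311 CPM in the Untreated mouse. Socs1 stood at 95.6 and 66.6 CPM in GA-aFuc mice, 68.6 and 84 CPM in GITR/Syn GA-aFuc mice and 36.5 CPM in the N297A mouse, against 106 CPM in the Untreated mouse. For both genes the N297A mouse was the lowest of the 6, as it was for Ciita.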

How the data were processed

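CD45+ cells of MC38 tumours from 6 library 2 mice were read from the authors' deposited counts, a matrix of UMI counts that names Cell Ranger 9.0.0 in its header, with GRCm39 and GRCh38 per the submitters' processing notes. Cell types, clusters and treatments came from the authors' deposited metadata, whose last 6 runs of rising barcode were taken as the 6 mice; the deposited hashtag counts matched for 10476 of 10476 cells. Library 1, with 8734 cells, was not analysed here. Counts were summed per mouse and class and tested with edgeR 4.0.16 (filterByExpr, TMM, quasi-likelihood test, Benjamini-Hochberg over all genes, adjusted p under 0.05, R 4.3.3). The main fits had 2 residual degrees of freedom. There were fewer with the Xist term, without a mouse of a pair, or with a pair and a single mouse fitted alone. DESeq2 1.42.0, other filters and scalings, an Xist term and each mouse left out were alternatives. On simulated data for GA-aFuc against Untreated in macrophages (14253 genes), the test recovered 83 of 100 simulated 8-fold changes and 16 of 100 simulated 2-fold changes. It made 13 false calls there. N297A against Untreated was not simulated. No doublet caller was run. The members and lists, and the promoter motifs, were chosen with earlier results of these data known. The named genes were all members, the listed genes past the threshold or with the smallest p, and the 10 genes most like the summed level; Irf1, Socs1 and genes named beside them as markers or checks were added after their values were seen. 1 B cell marker is not reported here. Numbered mice share no label, so nothing pairs them.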

Additional observations from a re-analysis of the deposited data

Results flagged for a closer look

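Barcodes without an annotation carried class II RNA too. Of 16291 barcodes with at least 500 UMIs, 5815 were not among the annotated cells, with a median of 11242 UMIs. Their summed class II level was 6634 CPM, above the 583 CPM of CD8 T cells and below the 13275 CPM of macrophages. At least 1 class II UMI was found in 97.4% of them. They drew attention as a signal in data outside every comparison. Why they were left unannotated was not tested.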

How the results depend on the processing

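edgeR called 0 members in all 18 tests of macrophages, monocytes and dendritic cells. CD8 T and NK cells were also fitted, with 6 members tested. There 0 members were called, where 0 to 1 of 8570 and 0 to 25 of 9329 genes were. In NK cells 4, 4 and 3 of 6 had an unadjusted edgeR p under 0.05 in GA-aFuc, GITR/Syn GA-aFuc and N297A against Untreated. Over all genes it was 4.86%, 7.46% and 2.29%. In the Untreated mouse 1 NK cell held 45.3% of their class II UMIs, and its part was not tested. In macrophages, members called in GA-aFuc against Untreated numbered 1 with no filter on low counts, 5 with the Xist term and 0 to 1 with each mouse left out. In N297A against Untreated they numbered 3 with DESeq2, 5 with no filter, 5 with the Xist term and 0 to 1 with a mouse left out, and in GA-aFuc against N297A 1 with no filter and 0 to 1 with a mouse left out. In monocytes GA-aFuc against Untreated gave 2 with no filter. In dendritic cells GA-aFuc against N297A gave 1 with those treatments alone and 0 to 1 with a mouse left out, GITR/Syn GA-aFuc against Untreated and against GA-aFuc 0 to 1, and both Fc-enhanced antibodies against the others 0 to 4.

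Pathway genes called in macrophages, 0 in each comparison, became 1 with DESeq2, 1 with no filter and 0 to 2 with a mouse left out in GA-aFuc against Untreated; 3, 4 and 0 to 1 in N297A against Untreated; 2, 5 and 0 to 4 in GA-aFuc against N297A; 1, 1 and 0 to 2 in GITR/Syn GA-aFuc against GA-aFuc. For both Fc-enhanced antibodies against the others they became 1, 4 and 0 to 2. In monocytes that last comparison gave 0 to 2, with 2 in the main fit and 0 without the N297A mouse. In dendritic cells no filter and a left-out mouse gave 4 and 0 to 3 in GA-aFuc against Untreated, 3 and 3 in N297A against Untreated, 2 and 0 to 3 in GA-aFuc against N297A, 4 and 1 to 3 in GITR/Syn GA-aFuc against GA-aFuc, and 1 and 0 to 1 for both Fc-enhanced antibodies. Over the 6 comparisons, the share of all genes called in macrophages was 0% to 0.144% with DESeq2, 0.126% to 0.958% with no filter and 0% to 2.72% with a mouse left out. With a mouse left out it was 0% to 2.6% in monocytes. In dendritic cells it was 0.183% to 0.694% with no filter and 0% to 2.14% with a mouse left out. The cause was not tested.

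Of the members' log2 fold changes against Untreated, 21 turned sign, 21 gained a call and 816 kept sign and call under the alternatives other than leaving out a mouse, and 12 turned, 4 gained and 404 kept with a mouse left out. H2-DMb2 in macrophages turned to 0.027 (GA-aFuc), 0.096 (GITR/Syn GA-aFuc) and 0.037 (N297A) without the marginal clusters, and to 0.0091 for GITR/Syn GA-aFuc with the stricter filter. With a mouse left out it ran from -0.18 to 0.061 in GA-aFuc and from -0.092 to 0.069 in GITR/Syn GA-aFuc. In monocytes H2-Oa turned to -0.050 in GITR/Syn GA-aFuc with the Xist term. With a mouse left out, H2-Oa in GA-aFuc ran from -0.80 to 0.10, and in GITR/Syn GA-aFuc Ciita ran from -0.64 to 0.15 and H2-DMb2 from -0.25 to 0.065.

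In dendritic cells GITR/Syn GA-aFuc turned in cDC2 alone, to 0.19 for Ciita, 0.0195 for H2-DMa, 0.077 for H2-Ob, 0.094 for H2-Ab1, 0.083 for H2-Aa, 0.067 for H2-Eb1 and 0.0196 for Cd74. With the Xist term it turned to 0.064 for H2-DMb1, 0.032 for H2-Ab1 and 0.0095 for H2-Aa. Without the top 1% of cells by UMIs Ciita turned to 0.040, and with equal cells per mouse H2-Oa turned to -0.048. With a mouse left out, Ciita ran from -0.058 to 0.012, H2-Oa from -0.020 to 0.072, H2-DMb1 from -0.16 to 0.044, H2-Ob from -0.22 to 0.034, H2-Ab1 from -0.25 to 0.11, H2-Aa from -0.20 to 0.023 and H2-Eb1 from -0.27 to 0.040. For N297A, equal cells per mouse turned H2-Ob to 0.013, H2-Ab1 to -0.032 and Cd74 to 0.00078, and cDC2 alone turned H2-Ob to 0.00020.

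As a log2 ratio to Untreated, the summed level by the median over cells moved to -1.24 for GA-aFuc and -2.40 for N297A in macrophages and to -1.58 for N297A in monocytes. With a mouse left out it ran from -0.97 to -0.23 for GA-aFuc in monocytes and from -0.22 to 0.0033 for GITR/Syn GA-aFuc in dendritic cells. The share of macrophages with many class II UMIs in N297A moved to -0.18 without thinning. mregDC alone was not run, and leaving out the single N297A or Untreated mouse gives no value for its own comparisons. No paired analysis was possible because the labels give the treatments no shared replicate numbers.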
